A study of Mus musculus with 6 samples.

Results

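The Pre-EMT vagal/trunk neural crest class is 1 of 11 cell classes that the authors assigned to single cells of mouse neural tube organoids, and EMT stands for epithelial-to-mesenchymal transition. Its members are all cells that carry this class name in the deposited cell table, and they were taken on every day. The class held 249 of the 11981 cells of that table, which covers 4 of the 6 libraries and was the only table with the name, and 249 of the 16282 cells of the series. It was 1 cluster in the authors' numbering. By day it held 45 of 2402 cells at day 6, 30 of 2565 at day 7, 69 of 3337 at day 8 and 105 of 3677 at day 10. The authors made their classes from the expression of these same cells, so every difference between the class and other cells below is a description with no test.

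Neural tube organoids are hollow neuroepithelial tissues that form from embryonic stem cells in a gel. All 4 libraries came from the reporter line Sox1::eGFP;Bra::mCherry, a mouse embryonic stem cell line whose reporters mark neural (Sox1) and primitive streak (Brachyury) identity. Per the labels, cells grew in Matrigel drops, with activin-A and bFGF in the medium up to day 3 and without them later. Each library pooled elongated organoids of 1 day, 100 per condition. Organoids kept beyond day 6 were embedded again, 1 to a drop, so day 6 differs from days 7, 8 and 10 in handling as well as in age. The day 6 library is the second of the elongated batches, and each day is 1 library with no replicate, so differences between days have no replicate check. The labels name no other added factor, and all groups share this.

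The neural crest arises at the dorsal edge of the neural tube, next to the roof plate, the dorsal midline that secretes Wnt, BMP and R-spondin proteins. Crest cells switch on border genes first, then specifiers such as Foxd3, Sox10 and Ets1, and leave the epithelium by EMT. Hox genes set the position along the body axis, and trunk levels carry transcripts of more 5′ Hox genes than the hindbrain does. Retinoic acid, which Aldh1a2 makes, acts on that Hox pattern in the posterior hindbrain and spinal cord.

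Values below are UMI counts summed over the cells of a class and scaled to 1 fixed total for every class, as in CPM values. Log2 differences have 1 CPM added to each side, and 95% Poisson intervals cover counting error only. The class cells were deeper than the rest, with median UMIs per cell of 80472, 55770, 43771 and 26756 at days 6, 7, 8 and 10, against 58745, 48446, 31273 and 21987 in the other cells. Mitochondrial shares were alike, with medians of 4.15% to 5.90% in the class and 4.10% to 5.81% in the other cells. Across libraries, 14 cell barcodes were shared by 28 cells, of which 1 was in the class. The cells it is set against changed over time: at day 6 they were mostly the Mid/hindbrain class (2173 cells), and by day 10 they held 435, 374 and 367 cells of 3 dorsal interneuron classes. For that reason the Spinal cord class, with 131, 86, 676 and 228 cells by day, is given beside all other cells.

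The markers named for the class are Col14a1, a collagen of connective tissue; Aldh1a2, the main embryonic enzyme of retinoic acid synthesis; and Hoxb8, a Hox gene of the trunk. In the GENCODE annotation of GRCm38, Col14a1 lies at chr15:55307750-55520803, Aldh1a2 at chr9:71215789-71296243 and Hoxb8 at chr11:96281905-96285315, all on the forward strand. The 250 bases before the start of Hoxb8, Aldh1a2 and the Wnt target Sp5 follow, because retinoic acid synthesis, Hox position and Wnt response are described below. They are RefSeq sequences of GRCm38.p6, all on the forward strand. Capitals mark matches to TTTATNG, a CDX-type motif, or to CTTTGAT, a TCF/LEF motif.
Hoxb8, chr11:96281655-96281904: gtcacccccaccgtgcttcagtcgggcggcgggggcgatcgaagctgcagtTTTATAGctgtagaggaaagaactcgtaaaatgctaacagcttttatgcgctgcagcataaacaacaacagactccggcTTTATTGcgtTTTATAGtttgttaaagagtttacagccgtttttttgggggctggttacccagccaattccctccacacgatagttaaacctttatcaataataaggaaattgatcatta
Aldh1a2, chr9:71215539-71215788: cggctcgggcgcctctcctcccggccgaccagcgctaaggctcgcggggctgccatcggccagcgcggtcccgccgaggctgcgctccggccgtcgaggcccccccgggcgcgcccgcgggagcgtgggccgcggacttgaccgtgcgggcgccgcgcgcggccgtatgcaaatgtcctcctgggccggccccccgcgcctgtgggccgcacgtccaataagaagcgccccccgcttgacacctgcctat
Sp5, chr2:70474673-70474922: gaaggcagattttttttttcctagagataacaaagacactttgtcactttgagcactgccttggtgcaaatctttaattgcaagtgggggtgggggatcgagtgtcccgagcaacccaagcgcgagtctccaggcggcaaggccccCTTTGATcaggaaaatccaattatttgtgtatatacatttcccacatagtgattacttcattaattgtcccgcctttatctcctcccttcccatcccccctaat

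The Hoxb8 window held 3 matches to TTTATNG, a motif present at least once on either strand in 9.81% of 32851 windows of the same length. The share of windows with 3 matches was not counted, and the GC content of the Hoxb8 window was 44.4%. The Sp5 window held 1 match to CTTTGAT, present in 3.21% of windows, while CTTTGAA was present in 4.46% and either of the 2 in 7.48%. The Aldh1a2 window held none of the motifs searched and had a GC content of 77.6%, against a median of 52.4% over all windows. TGATTNAT, a HOX-PBX motif found in 2.82% of windows, was in none of the 3, and its first letters can overlap the end of CTTTGAT. Of 13 genes looked up, 9 were in the table. The windows of the other Wnt pathway genes found there, Axin2, Lef1, Wnt4 and Rspo1, held 0 matches to CTTTGAT or CTTTGAA. Axin2 held 1 match to TGATTNAT, and 1 Lef1 window held 1 to TTTATNG. These matches describe letters and were not tied to any measured binding.

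Col14a1 and Aldh1a2 set the class apart from day 7 on, and hardly or not at all at day 6. Summed Col14a1 levels in the class were 0.545, 95.5, 81.2 and 479 CPM at days 6, 7, 8 and 10, against 0.930, 7.61, 4.56 and 27.6 CPM in the Spinal cord class and 0.168, 0.713, 1.23 and 3.68 CPM in all other cells. The day 10 value had an interval of 454 to 504 CPM and the day 6 value one of 0.0661 to 1.97 CPM, since day 6 held only 2 UMIs in 2 cells. The class supplied 62.4%, 65.7% and 82.1% of all Col14a1 UMIs of its library at days 7, 8 and 10 with 1.17%, 2.07% and 2.86% of the cells.

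Aldh1a2 was 22.6, 213, 102 and 147 CPM in the class, against 26.2, 33.1, 11.3 and 8.00 CPM in the Spinal cord class and 3.37, 2.02, 2.91 and 1.37 CPM in all other cells. At day 6 the class was thus slightly below the Spinal cord class and close to the Pre-EMT cranial class at 23.7 CPM, and from day 7 it ranked first of the classes with at least 20 cells, which numbered 4, 7, 10 and 11 at days 6, 7, 8 and 10 and to which all ranks below refer. It supplied 14.2%, 56.7%, 50.4% and 79.1% of the Aldh1a2 UMIs of the 4 libraries.

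Hoxb8 was 102, 152, 142 and 205 CPM in the class, against 114, 87.6, 126 and 112 CPM in the Spinal cord class and 9.59, 4.84, 43.4 and 48.5 CPM in all other cells. This marker did not separate the class from the Spinal cord class at days 6 and 8. At day 8 the dorsal interneuron 2 class was higher still, at 351 CPM.

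**Figure D1:**
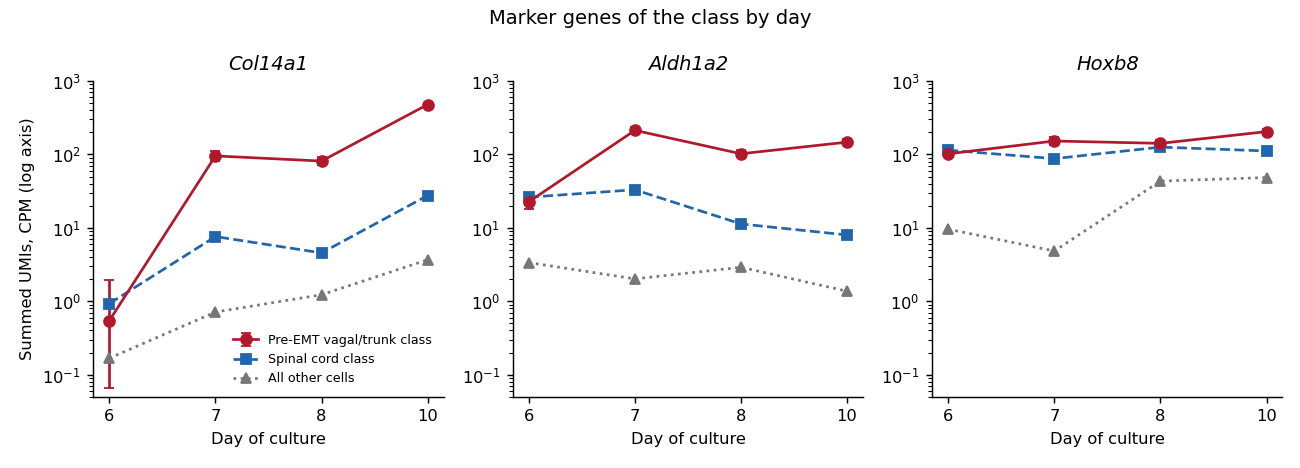
Summed CPM (log axis) of Col14a1, Aldh1a2 and Hoxb8 at days 6, 7, 8 and 10 in the Pre-EMT vagal/trunk class (circles, bars are 95% Poisson intervals), the Spinal cord class (squares) and all other cells (triangles). The class meets the Spinal cord class in all 3 genes at day 6 and lies above it in Col14a1 and Aldh1a2 afterwards, with Col14a1 at 479 CPM at day 10.

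Cell by cell, the same order held once every cell was thinned to 5000 UMIs. A Col14a1 UMI was present in 0%, 46.7%, 27.5% and 82.9% of class cells at days 6, 7, 8 and 10, against 0%, 0%, 0.115% and 0.386% of Mid/hindbrain cells, a class that should lack these trunk markers. For Aldh1a2 the shares were 4.44%, 66.7%, 49.3% and 53.3% in the class and 0.828%, 0.190%, 0.172% and 0.193% in Mid/hindbrain cells, and for Hoxb8 42.2%, 60.0%, 44.9% and 66.7% in the class and 1.56%, 0.237%, 1.26% and 3.86% in Mid/hindbrain cells. Spinal cord cells were closer, with Hoxb8 in 43.5%, 36.0%, 44.1% and 38.2%, so its shares were alike at days 6 and 8. They held Aldh1a2 in 9.92%, 8.14%, 3.99% and 3.51% and Col14a1 in 0%, 4.65%, 2.07% and 10.5%. At day 6, 9.62% of Pre-EMT cranial cells held Aldh1a2, also more than in the class. Median depths before thinning were 80472, 55770, 43771 and 26756 UMIs in the class and 59102, 48738, 34760 and 25975 UMIs in Mid/hindbrain cells. Without thinning, Col14a1 was seen in 4.44%, 93.3%, 85.5% and 99.0% of class cells, Aldh1a2 in 62.2%, 93.3%, 87.0% and 84.8% and Hoxb8 in 86.7%, 93.3%, 100% and 99.0%. All 3 markers together were seen in 2 of 45, 28 of 30, 54 of 69 and 88 of 105 cells. Cells with none of them numbered 4 at day 6 and 2 at day 7, and 0 at days 8 and 10.

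The class was a small part of each library. It made up 1.87% of cells at day 6 (exact Clopper-Pearson 95% interval 1.37% to 2.50%), 1.17% at day 7 (0.790% to 1.67%), 2.07% at day 8 (1.61% to 2.61%) and 2.86% at day 10 (2.34% to 3.45%). The intervals of days 7 and 10 do not overlap, but they cover the counting of cells only. Among the cells of the 3 classes named neural crest, its share was 46.4%, 15%, 45.4% and 25.2%, out of 97, 200, 152 and 416 cells. The other crest classes varied too: the Pre-EMT cranial class held 52, 133, 76 and 255 cells and the Migratory cranial class 0, 37, 7 and 56 cells.

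Set against its label, the class carried border genes but few transcripts of the crest specifiers. Sox10, the regulator of migrating crest and its glia, had 2 UMIs at day 7 and 0 UMIs at days 6, 8 and 10, where 0 allows at most 0.818, 0.923 and 0.981 CPM (3 UMIs). In the Migratory cranial class Sox10 was 135 and 374 CPM at days 7 and 10. Foxd3, which marks premigratory crest, was 17.8 and 0 CPM in the class at those days, against 159 and 90.1 CPM in the Migratory cranial class. All 29 Foxd3 UMIs of the class came from 1 day 7 cell of 45781 UMIs, and Foxd3 had 0 UMIs at the other days. That cell also held 10 Ets1, 4 Tfap2b, 22 Rspo3, 13 Aldh1a2, 5 Col14a1 and 4 Hoxb8 UMIs and 0 of Sox10.

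The other specifiers were low as well. Ets1 was 9.18 and 1.63 CPM in the class at days 7 and 10, against 162 and 26.8 CPM in the Migratory cranial class. Tfap2a, which acts at the border and in early crest, was 11.0 and 1.31 CPM, against 70.3 and 26.8 CPM in that class. Erbb3, a neuregulin receptor of migrating crest, was 0 and 0.327 CPM, against 30.1 and 151 CPM. Snai2, an EMT regulator, was low in both classes, at 7.96 and 3.27 CPM, against 0 and 2.43 CPM. The Pre-EMT cranial class was low in most of these genes too. There Sox10 was 1.37 and 0.125 CPM at days 7 and 10, and Foxd3 1.78 and 0 CPM. Ets1 was 9.58 and 2.00 CPM there and Erbb3 1.64 and 0 CPM, while Tfap2a, at 19.8 and 12.3 CPM, was higher than in the vagal/trunk class. In the vagal/trunk class, 1 cell held 66.7% of the day 7 Ets1 UMIs.

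**Figure D2:**
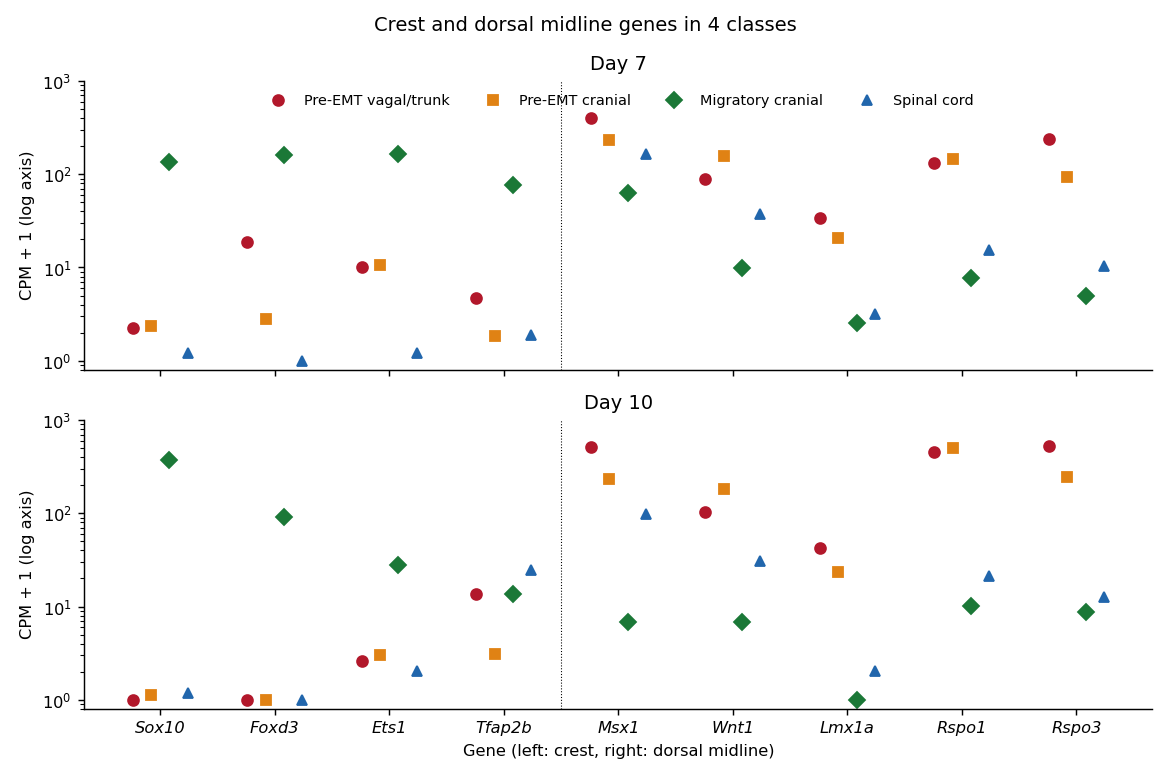
CPM with 1 added (log axis) of 4 crest genes (left of the dotted line) and 5 genes of the dorsal midline (right) at days 7 and 10 in the Pre-EMT vagal/trunk, Pre-EMT cranial, Migratory cranial and Spinal cord classes. Like the Pre-EMT cranial class, the vagal/trunk class is low in Sox10 and Ets1 and high in Msx1, Lmx1a, Rspo1 and Rspo3. It lies above that class in Foxd3 at day 7 (17.8 against 1.78 CPM) and in Tfap2b at day 10 (12.8 against 2.13 CPM). There 1 cell held all the Foxd3 UMIs, and 1 cell 56.4% of the Tfap2b UMIs.

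Several genes of the dorsal midline were higher in the class than in the other cells from day 7 on. At days 7 and 10 most crest specifiers were low for a crest label in both classes named pre-EMT, so their low level at those days is not particular to this class. At day 6 the Pre-EMT cranial class was higher than the vagal/trunk class in Ets1 (15.5 against 0.818 CPM) and Erbb3 (8.83 against 0.818 CPM). The class is called here by its deposited name only, as the vagal/trunk class. Of 13 roof plate genes, 1, 7, 5 and 7 reached 20 CPM on either side at days 6, 7, 8 and 10. Among them 1, 6, 5 and 7 were at least 2-fold higher in the class than in the other cells, and 0 were lower at any day. Over all genes that reached 20 CPM, 1.58%, 2.65%, 1.81% and 5.08% were that much higher in the class and 0.462%, 1.21%, 1.62% and 6.29% that much lower. The median log2 difference of all 13 genes was 0.52, 1.56, 1.88 and 1.42, beside 0, -0.032, -0.031 and -0.033 over all genes of the table.

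Msx1, a homeobox gene of the dorsal tube and border under BMP control, was 52.9, 402, 342 and 513 CPM in the class, against 19.1, 163, 71.3 and 97.9 CPM in the Spinal cord class and 8.18, 135, 66.0 and 94.0 CPM in all other cells. It ranked first of those classes at every day, and from day 7 every class cell held at least 1 UMI. Thinned to 5000 UMIs, 17.8%, 76.7%, 92.8% and 88.6% of class cells had an Msx1 UMI, against 2.72%, 43.5%, 25.5% and 46.5% of Mid/hindbrain cells, so Msx1 was not restricted to the class. In Pre-EMT cranial cells the shares were 9.62%, 63.9%, 61.8% and 61.6%.

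Lmx1a, which specifies the roof plate, was 3.82, 33.1, 10.8 and 41.9 CPM in the class, against 2.39, 2.17, 0.313 and 1.02 CPM in the Spinal cord class and 0.295, 2.20, 0.453 and 2.92 CPM in all other cells. It was seen in 10 of 45, 22 of 30, 22 of 69 and 66 of 105 class cells. Thinned, the shares were 2.22%, 20.0%, 5.80% and 17.1% in the class and 0.0460%, 0.332%, 0.0573% and 0.193% in Mid/hindbrain cells. In Pre-EMT cranial cells they were 0%, 3.01%, 3.95% and 9.80%. Among classes with at least 20 cells, Lmx1a was highest in the vagal/trunk class at all 4 days, with the Pre-EMT cranial class next from day 7.

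The R-spondins, secreted amplifiers of Wnt signalling, were lower in the class at day 8 than at days 7 and 10. Rspo3 was 7.09, 238, 90.8 and 522 CPM in the class, against 4.52, 9.35, 0.760 and 11.6 CPM in the Spinal cord class and 1.88, 10.6, 8.37 and 30.1 CPM in all other cells. Rspo1 was 6.55, 132, 56.9 and 457 CPM, against 3.99, 14.6, 5.68 and 20.4 CPM in the Spinal cord class and 4.13, 22.2, 23.7 and 64.3 CPM in all other cells. The Pre-EMT cranial class was higher in Rspo1 from day 7, at 145, 400.2 and 499 CPM, and was not lower at day 8 than at day 7. Rspo3 was highest in the vagal/trunk class at days 7 and 10, while the Pre-EMT cranial class had 20.8 and 190.4 CPM at days 6 and 8.

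Dorsal ligands were mixed, and Wnt1 was higher in the Pre-EMT cranial class. Wnt1, a dorsal Wnt, was 3.27, 87.5, 92.0 and 103 CPM in the class, against 1.99, 63.5, 30.4 and 46.2 CPM in all other cells, but 156, 244 and 183 CPM in the Pre-EMT cranial class at days 7, 8 and 10. Bmp6 was 0.273, 9.18, 10.8 and 38.9 CPM, against 0.423, 3.31, 3.14 and 4.26 CPM, and Wnt3a 1.64, 22.7, 10.8 and 12.1 CPM, against 0.201, 2.93, 2.05 and 6.35 CPM. Gdf7, a BMP ligand made by the roof plate, stayed low at 0, 3.06, 0 and 5.23 CPM in the class, against 0.0134, 0.311, 0.169 and 1.33 CPM in all other cells. Ttr, a transcript of the later choroid plexus, had 0 UMIs in the class at every day.

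Of 22 border and crest specifier genes, 10, 12, 13 and 13 reached 20 CPM, of which 2, 4, 3 and 4 were at least 2-fold higher in the class and 0, 1, 1 and 2 lower. The list shares Msx1 with the roof plate list. The higher members were mostly border and BMP response genes. Msx2, the close relative of Msx1, was 1.91, 77.1, 82.2 and 168 CPM in the class, against 0.959, 36.9, 15.2 and 43.7 CPM in all other cells, and Id3, a BMP-induced inhibitor of differentiation, was 492, 2437, 1910 and 2658 CPM, against 437, 892, 624 and 676 CPM. Zic5, a zinc finger gene of the dorsal tube, was 60.8, 181, 170.5 and 264 CPM, against 26.7, 98.4, 109 and 129.9 CPM, while Pax3, a dorsal progenitor gene, was 44.7, 196, 178 and 127 CPM, against 28.5, 119, 179.7 and 148 CPM and so not 2-fold apart at any day. Tfap2b, a specifier that other dorsal cells of these organoids also use, was a lower member at the last 2 days only. It was 0, 3.67, 0.923 and 12.8 CPM in the class, against 0.134, 9.65, 43.5 and 134 CPM in all other cells. In the dorsal interneuron 2 class it was 533 CPM at day 10. At the first 2 days Tfap2b stayed below the 20 CPM minimum on both sides, so the earliest lower member was another gene.

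Genes of EMT and migration were mixed. Of 19, 7, 9, 9 and 10 reached 20 CPM, 2, 4, 2 and 2 were at least 2-fold higher in the class and 0, 0, 2 and 2 lower. Cdh6, a cadherin of the dorsal tube and of early crest, was higher at all 4 days, at 57.5, 69.8, 49.2 and 114 CPM in the class, against 35.2, 8.05, 7.82 and 18.7 CPM in the Spinal cord class and 10.1, 19.1, 6.18 and 20.6 CPM in all other cells. It was higher still in the Migratory cranial class, at 168 and 264 CPM at days 7 and 10. Twist1, an EMT regulator, was 21.8, 38.0, 20.0 and 63.1 CPM in the class, against 16.7, 16.8, 7.28 and 15.4 CPM. Nrp2, a semaphorin co-receptor, was 25.4, 56.9, 18.2 and 33.4 CPM, against 7.80, 12.5, 6.29 and 16.3 CPM. The endothelin receptor Ednrb and the chemokine receptor Cxcr4, both used by migrating crest, were lower at days 8 and 10: Ednrb was 36.0 and 32.7 CPM, against 103 and 97.2 CPM in all other cells, and Cxcr4 12.6 and 13.7 CPM, against 27.9 and 33.5 CPM.

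Many Hox genes were higher in the class than in all other cells. Against the Spinal cord class the summed groups 6 to 9 were less than 2-fold apart except group 6 and group 7 at day 7, which were higher in the class by 1.48 and 1.34 (log2), and group 9 at day 6, which was lower (-1.25). Of the 39 mouse Hox genes, 29 were in the table and 12, 16, 20 and 19 reached 20 CPM at days 6, 7, 8 and 10. Of these, 9, 12, 16 and 11 were at least 2-fold higher in the class than in all other cells and 0 lower. The median log2 difference over the 29 was 1.80, 2.23, 1.56 and 0.85. Hoxa7, Hoxb7, Hoxb8 and Hoxb9 were at least 2-fold higher at all 4 days, which 15 (0.303%) of the 4952 genes at 20 CPM or more on every day were.

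Summed by paralogue group, the difference was larger in the posterior groups than in group 2. Group 2 (Hoxa2 and Hoxb2), used up to the anterior hindbrain, was 131, 205, 190.5 and 251 CPM in the class, against 119.7, 189, 159 and 183 CPM in the Spinal cord class and 143, 325, 194 and 207 CPM in all other cells. Group 4 was 77.7, 124, 221 and 319 CPM, against 122, 132, 183 and 348 CPM in the Spinal cord class and 12.9, 8.23, 60.0 and 169 CPM in all other cells. Group 7 was 52.9, 179, 247 and 159.6 CPM, against 61.1, 70.5, 156 and 127 CPM in the Spinal cord class and 5.63, 3.89, 46.0 and 35.4 CPM in all other cells. Class over other cells, the log2 differences were -0.13, -0.66, -0.03 and 0.28 for group 2 and 3.02, 5.20, 2.40 and 2.14 for group 7. The highest group 7 difference fell at day 7, when the other cells held the least of it.

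Group 9 was the most caudal group with appreciable UMIs, and it behaved differently over time. It was 117, 162, 232 and 63.8 CPM in the class, against 281, 100.0, 184 and 106 CPM in the Spinal cord class and 17.5, 5.05, 50.7 and 31.2 CPM in all other cells. Class over Spinal cord the log2 differences were -1.25, 0.69, 0.33 and -0.72, so the class was below the Spinal cord class at days 6 and 10 and above it at days 7 and 8. Hoxb9 made up most of it and was seen in 38 of 45, 25 of 30, 65 of 69 and only 50 of 105 class cells. Group 4 at day 10 was at its highest of the 4 days, at 319 CPM, and so was group 5, at 247 CPM, against 157 CPM in the Spinal cord class and 98.0 CPM in all other cells.

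**Figure D3:**
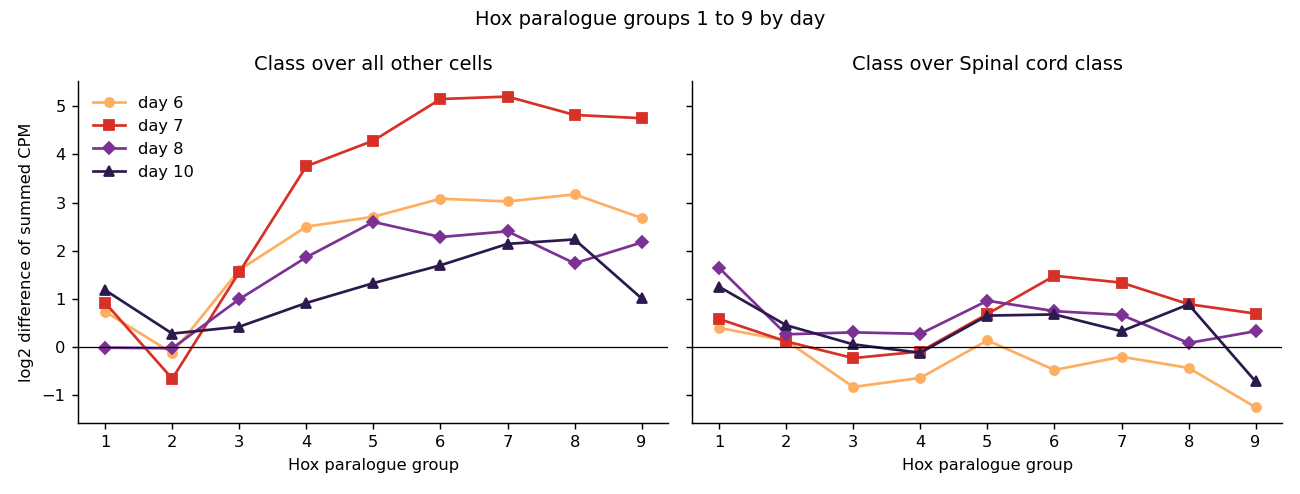
Log2 difference of summed CPM for Hox paralogue groups 1 to 9 at days 6, 7, 8 and 10, class over all other cells (left) and class over the Spinal cord class (right). Against all other cells the lines climb from group 2 to groups 4 to 8 at every day, and against the Spinal cord class they stay between -1.25 and 1.64.

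At the level of cells, nearly every member carried trunk Hox transcripts. Hox genes of groups 6 to 9, counted together and thinned to 5000 UMIs, were seen in 57.8%, 90.0%, 98.6% and 88.6% of class cells, against 81.7%, 57.0%, 79.9% and 69.3% of Spinal cord cells and 2.62%, 0.427%, 2.69% and 4.93% of Mid/hindbrain cells. Unthinned, the shares were 91.1%, 93.3%, 100% and 100% in the class and 11.4%, 2.18%, 10.7% and 11.9% in Mid/hindbrain cells. The median class cell held 18, 30.5, 35 and 13 such UMIs, and 4 cells at day 6 and 2 at day 7 held none. Of those without, 3 at day 6 and both at day 7 also lacked all 3 markers. Hoxaas3 and Hoxb5os, antisense genes in the HoxA and HoxB clusters, were at least 2-fold higher at all 4 days too. Each overlaps Hox genes on the opposite strand, and whether counting used the strand is not given in the sources used here, so their UMIs cannot be told apart from those of the overlapping Hox genes.

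Some genes of caudal progenitors were seen in the class at day 6 and had 0 UMIs later. Cdx2, a caudal homeobox regulator of Hox genes, was 72.0 CPM in the class at day 6 (interval 63.6 to 81.2), against 22.2 CPM in the Spinal cord class and 5.51 CPM in all other cells. It was seen in 35 of 45 class cells and had 0 UMIs at days 7, 8 and 10. Nkx1-2, a gene of the caudal lateral epiblast, was 48.5 CPM, against 19.0 CPM in the Spinal cord class and 6.35 CPM, and likewise had 0 UMIs afterwards. Cdx1 was 37.9 CPM, against 3.39 CPM in all other cells, and Cdx4 15.3 CPM, against 0.409 CPM. T (Brachyury), the mesoderm and notochord gene of the reporter, was 1.64 CPM in the class, against 0.449 CPM. Of the 15 caudal genes in the table, 6, 3, 2 and 2 reached 20 CPM, and 3, 2, 1 and 1 were at least 2-fold higher in the class. Over all genes that reached 20 CPM, 1.58%, 2.65%, 1.81% and 5.08% were that much higher. Summed, the 15 were 399, 163, 133 and 106 CPM in the class, against 176, 93.0, 82.7 and 77.0 CPM in all other cells. At days 7, 8 and 10, 9, 7 and 10 of the 15 had 0 UMIs in the class. The sums include Sp5 and Wnt3a, which are also on the Wnt pathway list, so they do not show that caudal progenitor genes in general persisted.

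**Figure D4:**
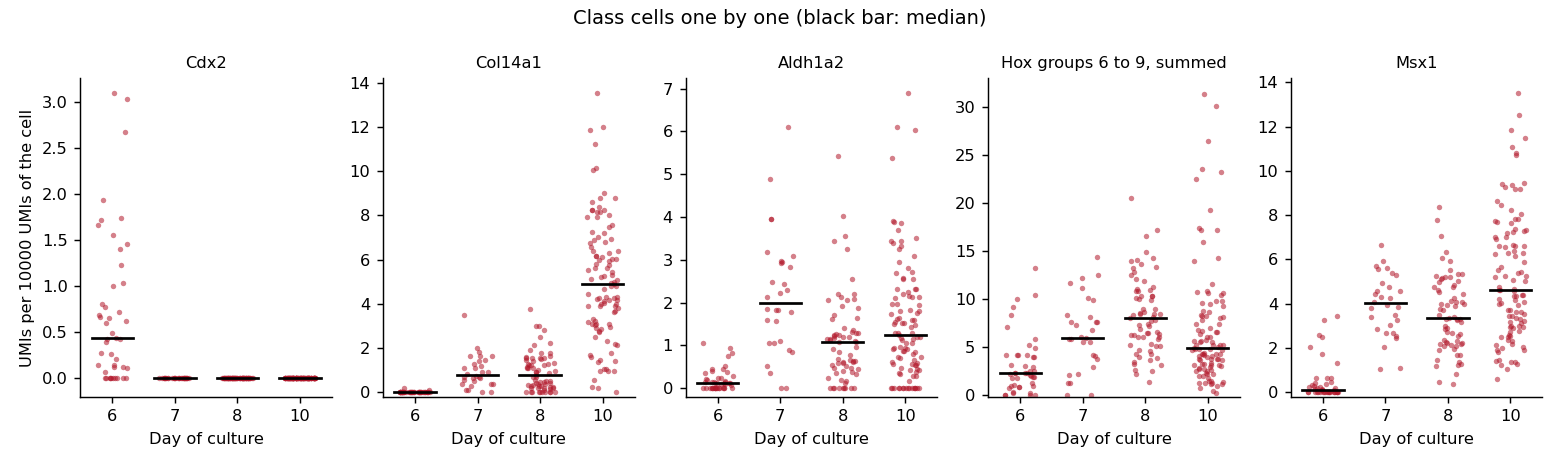
UMIs per 10000 UMIs of the cell for Cdx2, Col14a1, Aldh1a2, the Hox genes of groups 6 to 9 summed, and Msx1 in each of the 45, 30, 69 and 105 class cells at days 6, 7, 8 and 10 (points; black bars are medians). Cdx2 appears in 35 of 45 cells at day 6 and in 0 later, Col14a1 appears in 2 of 45 cells at day 6 and in most later, and Hox transcripts are spread over nearly all cells of every day.

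The day 6 members also differed among themselves. Msx1 was seen in 24 of 45 cells, with a highest cell of 37 UMIs and a median of 1, and 1 cell held 19.1% of the Msx1 UMIs of the class. Of 16 surface ectoderm genes in the table, 5 reached 20 CPM at day 6 and 2 were at least 2-fold higher: Tfap2c was 44.7 CPM, against 9.71 CPM in all other cells, and the epithelial cadherin Cdh1 was 22.1 CPM, against 8.85 CPM and 0 UMIs in the class later. At that day the class thus had neither Col14a1 nor an Aldh1a2 level above the Spinal cord class, and its defining markers did not tell it from the Spinal cord class.

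Genes of the retinoic acid pathway were mixed, with the enzyme Aldh1a2 higher and the binding protein Crabp1 lower at all 4 days. Of 20 genes, 9, 8, 9 and 10 reached 20 CPM, 2, 2, 3 and 4 were at least 2-fold higher in the class, Aldh1a2 among them, and 1, 1, 1 and 3 lower. Rarb, a retinoic acid receptor that is itself a target of the signal, was 12.8, 18.4, 24.0 and 37.9 CPM, against 17.3, 15, 20.3 and 66.4 CPM in the Spinal cord class and 3.44, 1.88, 7.05 and 14.5 CPM. Crabp1, which binds retinoic acid in the cytoplasm, was lower at all 4 days, at 1535, 1085, 445 and 253 CPM in the class, against 1050.1, 1786, 275 and 224 CPM in the Spinal cord class and 3228, 3971, 3096 and 2192 CPM in all other cells. Cyp26b1, which degrades retinoic acid, was 0.273, 0.612, 0.308 and 0.327 CPM, against 1.24, 10.4, 13.5 and 25.8 CPM. Cyp26b1 reached the 20 CPM minimum at day 10, and Rarb at days 8 and 10. Stra6, the retinol uptake receptor, was 20.2, 0, 1.23 and 18.3 CPM, against 20.9, 1.24, 0.204 and 0.830 CPM, and at day 10 stayed below the 20 CPM minimum on both sides.

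Among Wnt pathway genes, ligands and target genes were both higher in the class than in all other cells from day 7. Of 21, 4, 10, 10 and 11 reached 20 CPM, 2, 7, 8 and 8 were at least 2-fold higher and 0, 0, 0 and 1 lower, and the list shares Wnt1, Wnt3a, Rspo1 and Rspo3 with the roof plate list. Wnt4, a ligand, was 12.0, 127, 181 and 209.9 CPM in the class, against 9.70, 72.4, 128 and 92.8 CPM in the Spinal cord class and 6.03, 30.5, 46.9 and 19.7 CPM in all other cells. Lef1, the nuclear effector, was higher at all 4 days, at 62.7, 79.0, 53.9 and 44.5 CPM, against 46.4, 25.9, 10.6 and 13.5 CPM in the Spinal cord class and 28.9, 30.5, 13.7 and 13.6 CPM. Sp5, the target whose upstream window is printed above, was 16.4, 73.5, 43.7 and 35.0 CPM, against 6.24, 12.4, 5.77 and 9.71 CPM in the Spinal cord class and 4.24, 9.59, 2.33 and 3.83 CPM. Axin2, a negative feedback target, was 40.9, 96.1, 115 and 170.4 CPM, against 42.1, 58.4, 49.3 and 79.1 CPM and passed 2-fold at days 8 and 10. The single lower gene was Wnt7b at day 10, at 1.96 CPM, against 31.5 CPM in all other cells.

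BMP pathway genes were close to the other cells at day 6 and higher later. Of 20, 5, 10, 9 and 11 reached 20 CPM, 0, 3, 5 and 8 were at least 2-fold higher in the class and 1, 1, 0 and 0 lower. The higher ones were mainly inhibitors and response genes. Nog, a secreted BMP antagonist, was 2.45, 103, 57.9 and 74.5 CPM in the class, against 0.797, 26.7, 6.75 and 15.3 CPM in the Spinal cord class and 1.12, 14.2, 6.68 and 21.4 CPM in all other cells, and Bambi, a decoy receptor, was 8.18, 73.5, 28.0 and 142 CPM, against 9.46, 18, 6.46 and 26.2 CPM. Smad7, an inhibitory Smad, was 6.82, 72.2, 89.9 and 209.9 CPM, against 4.98, 38.7, 30.9 and 85.9 CPM. Fst, an antagonist of activin, was the lower gene of days 6 and 7, at 50.2, 6.12, 1.23 and 0 CPM, against 119, 39.8, 9.48 and 1.69 CPM. The ligands Bmp2 and Bmp4 stayed below 20 CPM on both sides at every day.

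Many collagen and basement membrane genes were higher in the class than in the other cells at day 10. Of 30, 10, 14, 11 and 18 reached 20 CPM, 1, 4, 4 and 11 were at least 2-fold higher in the class and 0, 1, 0 and 2 lower, Col14a1 being a member. At day 10, 5.08% of all genes that reached 20 CPM were that much higher and 6.29% lower. The Pre-EMT cranial class, the closest at day 10, is not set beside the class here for the matrix genes below. The same holds for Lef1, Sp5, Axin2, Nog, Bambi and Smad7 above, so these levels cannot be called particular to the class. Col4a1, a basement membrane collagen, was 23.7, 53.3, 24.6 and 106 CPM in the class, against 19.0, 7.83, 3.49 and 8.00 CPM in the Spinal cord class and 26.2, 23.5, 7.97 and 15.9 CPM in all other cells. Col4a5 was 9.0, 44.1, 50.5 and 107 CPM, against 4.36, 11.0, 16.8 and 25 CPM, and the laminin chain Lamb1 27.5, 24.5, 17.2 and 32.7 CPM, against 15.4, 12.2, 2.16 and 3.71 CPM. Nid2, which links laminin to type IV collagen, was higher at all 4 days, at 20.2, 57.5, 28.0 and 31.4 CPM, against 6.10, 23.8, 9.59 and 7.34 CPM. Fibrillar collagens of mesenchyme stayed low: Col1a1 was 0.545, 0.612, 0.308 and 0.327 CPM, against 0.798, 1.77, 0.249 and 0.945 CPM, and Col3a1 had 1 UMI in all class cells of the 4 days.

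General neural progenitor genes were mostly less than 2-fold apart from the other cells, and neuronal genes were present but lower at days 8 and 10. Sox2, a pan-progenitor factor, was 186, 266, 296 and 243 CPM in the class, against 199.9, 275, 305 and 201 CPM in all other cells. Of 16 progenitor genes, 14, 14, 14 and 13 reached 20 CPM, 0, 0, 1 and 1 were at least 2-fold higher and 3, 3, 3 and 4 lower. Sox21, a progenitor gene that promotes differentiation, was lower at all 4 days, at 54.8, 7.96, 24.0 and 1.63 CPM, against 99.8, 102, 131 and 89.7 CPM in the Spinal cord class and 112, 52.1, 136 and 51.8 CPM. The list medians were -0.33, -0.20, -0.52 and -0.50. Irx3, Irx5 and Pax6, homeobox genes of intermediate progenitors, were 5.23, 8.50 and 22.6 CPM in the class at day 10, against 38.9, 73.7 and 54.0 CPM in all other cells. Hes1, a Notch and BMP response gene high in non-neurogenic boundary cells, was 89.2, 77.1, 59.4 and 174 CPM, against 139.8, 41.4, 26.1 and 26.9 CPM.

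Of 11 neuron genes, 2, 5, 10 and 11 reached 20 CPM and 1, 2, 10 and 11 were at least 2-fold lower in the class, with 0 higher. Summed, they were 132, 111, 193 and 279 CPM in the class, against 230.0, 245, 1045 and 3612 CPM in all other cells. Stmn2, a neuronal microtubule regulator, was 60.3, 8.57, 8.00 and 51.7 CPM, against 58.3, 13.9, 14.5 and 51.3 CPM in the Spinal cord class and 149, 43.4, 201 and 848 CPM in all other cells. Dcx, a gene of migrating young neurons, was 0, 0, 0.615 and 15 CPM, against 0, 0, 2.73 and 17.9 CPM and 0.362, 2.46, 50.9 and 268 CPM. At day 10, 1 cell held 43.5% of the Dcx UMIs of the class, and 85 of 105 class cells held 0. The Spinal cord class was low in Dcx as well, and days 8 and 10 hold the interneuron classes among the other cells. Of 18 dorsal progenitor and interneuron genes, 2, 4, 6 and 11 reached 20 CPM. Among those, 0, 1, 2 and 9 were at least 2-fold lower and 0, 0, 2 and 0 higher. Over all genes that reached 20 CPM, 0.462%, 1.21%, 1.62% and 6.29% were that much lower and 1.58%, 2.65%, 1.81% and 5.08% higher.

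Cells of other origins left little trace in the class. Of 14 genes of lateral mesoderm and mesothelium, 10 of endoderm and 5 of endothelium and blood in the table, 0 reached 20 CPM on either side at any day. Of 16 genes of paraxial mesoderm and mesenchyme, 2, 2, 1 and 2 did, and the higher one at days 7, 8 and 10 was Twist1. Genes of G2 and mitosis had medians above those of the other cells at every day, by less than 2-fold: 14 of 14 genes of G2 and mitosis reached 20 CPM at each day, 0 were 2-fold apart, and their median log2 differences were 0.66, 0.50, 0.34 and 0.28. Of 14 S phase genes 1 was 2-fold lower, at day 7, with medians of -0.04, -0.13, 0.04 and 0.06. Among 12 dissociation stress genes, 10, 8, 5 and 6 reached 20 CPM, of which 1, 2, 1 and 1 were at least 2-fold higher and 0 lower. Over all genes that reached 20 CPM, 1.58%, 2.65%, 1.81% and 5.08% were that much higher. The list medians were 0.09, -0.20, 0.54 and 0.36. Fos was 325, 208, 66.2 and 121 CPM in the class, against 259, 62.9, 21.1 and 26.4 CPM in all other cells, so less than 2-fold apart at day 6.

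**Figure D5:**
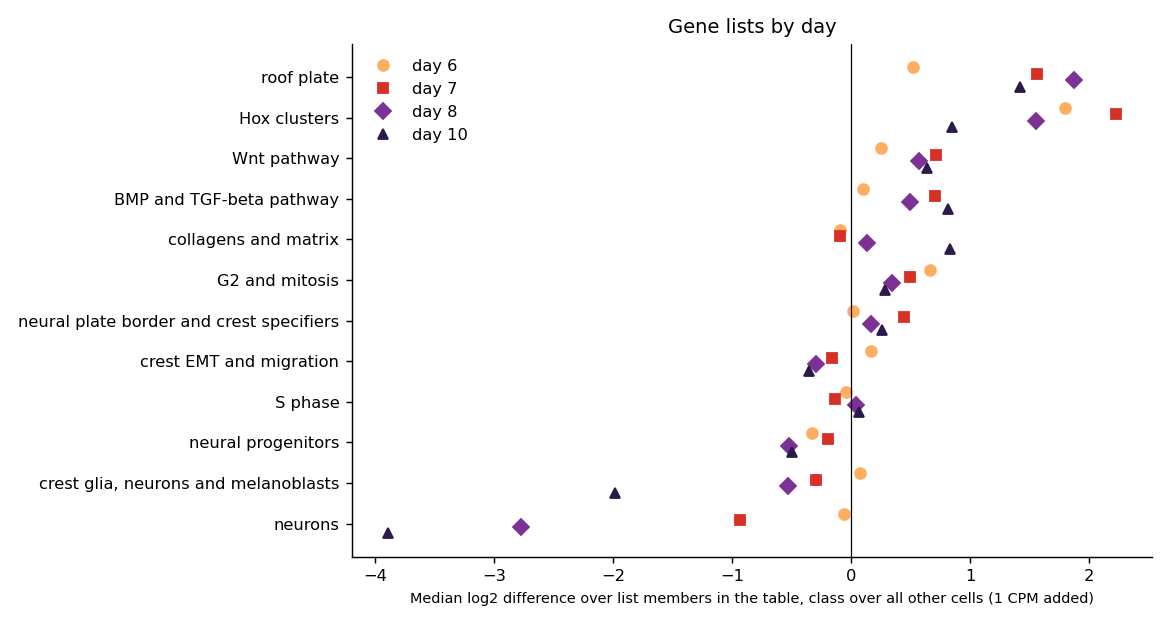
Median log2 difference between the class and all other cells over the members of 12 gene lists that were in the table, at days 6, 7, 8 and 10 (1 CPM added). Roof plate and Hox lists lie to the right at every day, and neuron genes move from -0.06 at day 6 to -3.89 at day 10.

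Over all genes, the distance to the other cells was smallest at day 6 and largest at day 10. Of 5622, 6049, 5981 and 6455 genes that reached 20 CPM, 89, 160, 108 and 328 were at least 2-fold higher in the class and 26, 73, 97 and 406 lower. Of 4952 genes that reached 20 CPM at every day, 15 were higher at all 4 days and 6 (0.121%) lower. Without the day 6 library these counts were 51 and 19. The 15 were 6 genes of the Hox clusters or antisense to them, counting Hoxaas3 and Hoxb5os, then Aldh1a2, Msx1, Cdh6, Nid2 and Lef1 named above, and Plagl1, Mpped2, Skap2 and Tmem132c. Plagl1, an imprinted zinc finger gene, was 22.6, 144, 189.6 and 215 CPM in the class, against 9.63, 18.4, 66.7 and 75.6 CPM in all other cells. The 6 lower genes were Stmn2, Sox21, Crabp1, Nr2f2, Nuak1 and Nnat. Nr2f2, a nuclear receptor of the COUP-TF family, was 6.00, 80.2, 135 and 79.1 CPM, against 24.0, 144, 168 and 74.6 CPM in the Spinal cord class and 23.3, 239, 329.9 and 256 CPM in all other cells, and Nnat, an imprinted neural gene, was 133, 214, 188 and 288 CPM, against 279.9, 769, 529.5 and 1146 CPM.

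Within the class, the later days were each set against day 6, and not against one another. Against day 6, 392 (6.35%) of the genes tested were at least 2-fold higher at day 7, 483 (7.79%) at day 8 and 943 (14.5%) at day 10, while 246 (3.99%), 339 (5.47%) and 627 (9.62%) were lower. In the other cells of the same libraries the shares were 4.17%, 10.0% and 19.2% higher and 2.48%, 4.16% and 7.01% lower, so the whole culture differed between days on this scale. Handling, age and library cannot be told apart here.

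The largest day 10 differences from day 6 joined matrix, signalling and late progenitor genes. Col14a1 led with a log2 difference of 8.28 in the class, against 2.00 in the other cells. Rspo3 differed by 6.01 in the class, against 3.43, and Fam181b by 5.96, against 1.99. Nfia and Nfib, nuclear factors of the switch from early to late progenitors, differed by 6.85 and 6.58, against 4.48 and 5.09 in the other cells, and Pou3f2, a neural POU factor, by 6.69, against 5.18. Nfia, Nfib and Pou3f2 thus had large differences in the other cells too.

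The lowest included early and caudal genes. Sall4, of pluripotent and early caudal cells, differed by -6.69 in the class, against -4.32 in the other cells, and Lin28a, the inhibitor of let-7 maturation, by -6.47, against -4.20. Cdx2 and Nkx1-2 differed by -6.19 and -5.63, against -2.70 and -2.72, both from 0 UMIs at day 10 in the class, so these 2 depend on the 1 CPM added. Pou5f1, a pluripotency gene still present at day 6, was 64.1, 1.22, 0.308 and 0.981 CPM in the class, against 48.2, 1.93, 1.60 and 1.96 CPM in all other cells.

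The class whose profile was most like it was the Spinal cord class, with a Pearson correlation across genes of log2 CPM averaging 0.958 over the 4 days (6022 to 8085 genes), against 0.955 for the Pre-EMT cranial class and 0.949 for the Mid/hindbrain class. The points are genes, which are not independent replicates, and all classes share their library and most housekeeping levels. At day 10 the Pre-EMT cranial class was closer, at 0.955, against 0.926 for the Spinal cord class. Against the Spinal cord class, 84, 177, 104 and 379 genes were at least 2-fold higher (1.49%, 2.95%, 1.77% and 6.02%) and 25, 50, 39 and 189 lower (0.442%, 0.834%, 0.662% and 3.00%). Msx1 differed most steadily upwards, with log2 differences of 1.42, 1.30, 2.25 and 2.38, followed by genes such as Pla2g7, Cxxc5, Zic2, Nid2, Zic5 and Sparc. Ranked by the mildest difference of the 4 days, Fez1, an axon outgrowth gene, came lowest, at -3.04, -2.34, -1.98 and -2.24. Pax6 came next (-1.40, -2.37, -1.40 and -2.20), and Irx5 and Irx3 were among those that followed.

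The Pre-EMT cranial class was the other one named for crest that has not left the epithelium. Hoxb8 was 102, 152, 142 and 205 CPM in the vagal/trunk class, against 31.8, 2.46, 5.58 and 5.26 CPM in the Pre-EMT cranial class, and Aldh1a2 22.6, 213, 102 and 147 CPM, against 23.7, 3.69, 2.30 and 1.63 CPM. Msx1 was 52.9, 402, 342 and 513 CPM, against 22.6, 232, 180.2 and 233 CPM, and Lmx1a 3.82, 33.1, 10.8 and 41.9 CPM, against 0, 19.6, 7.88 and 22.3 CPM. In total 118, 88, 99 and 174 genes were at least 2-fold higher than in the Pre-EMT cranial class (2.02%, 1.44%, 1.63% and 2.81%) and 149, 70, 105 and 92 lower (2.54%, 1.15%, 1.73% and 1.49%).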

How the data were processed

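Transcripts of single cells were measured in 6 libraries, of which the 4 of the table that holds the class were used. Per the submitters' processing notes, Cell Ranger 3.1 and the mouse build mm10 were used. The deposited matrix holds UMI counts for 21062 genes with no normalisation, and the authors' cell table gives the class of each cell, its counts and genes, and its mitochondrial share in percent. UMIs and genes of all 11981 cells matched that table. The deposited cells had at least 3002 genes and at most 9.97% mitochondrial UMIs. How the classes were made and how doublets were treated is not given in the sources used here, and no doublet caller was run. The 2 libraries of the other deposited table do not carry the class name and were not used here.

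UMIs were summed over the cells of a class and library and scaled to CPM. A gene counted as apart when log2 values with 1 CPM added differed by at least 2-fold and the higher side reached 20 CPM. There was no test, since each day is 1 library and cells are not replicates. Shares of cells were taken after thinning each cell to 5000 UMIs, with no class cell left out. The share of the class among all cells carries an exact Clopper-Pearson 95% interval. UMI totals of the class were 3666760, 1633430, 3249678 and 3058438 at days 6, 7, 8 and 10. Intervals and the floor of 3 UMIs cover counting error only. The code of the size rule was checked on simulated counts.

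The class, its markers and 27 gene lists (384 genes, 362 in the table) were chosen with earlier results of these data known. Named genes are the markers, Hox genes that reach 20 CPM, list members 2-fold apart at all 4 days or 4-fold at any, the 15 highest and lowest over all days, the 12 highest and lowest of day 10 against day 6, and the 10 highest and lowest against the most alike class. Other list members named as examples were chosen after their values were seen. Alternatives were another added value, other minimums, per-cell means, other totals, other cells, other thinning and leaving out each day. Analyses used Python 3.11.15, numpy 2.4.6, pandas 2.3.3 and scipy 1.17.1.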

Additional observations from a re-analysis of the deposited data

Results flagged for a closer look

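Atoh1 and Vcan lay on opposite sides of the other cells at different days by at least 2-fold. These differences between days were not tested, since each day is 1 library. Atoh1, the regulator of the dorsalmost interneurons, was 0, 3.67, 21.8 and 17.3 CPM in the class at days 6, 7, 8 and 10, against 0.134, 3.09, 3.92 and 37.6 CPM in all other cells, with log2 differences of 2.22 at day 8 and -1.07 at day 10. The other cells held 34 cells of the dorsal interneuron 1 class at day 8 and 435 at day 10, and their part in the difference was not tested.

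Vcan, a proteoglycan of the matrix that migrating crest meets, was 87.0, 23.3, 35.1 and 21.3 CPM in the class, against 29.3, 64.6, 40.2 and 80.1 CPM in all other cells, with log2 differences of 1.54 at day 6 and -1.87 at day 10. In the Spinal cord class it was 71.7, 99.4, 40.1 and 22.5 CPM.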

How the results depend on the processing

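Of 412 values recomputed under an alternative, 362 kept within their limits, and 0 of 324 list medians were marked as reversed. Only medians at least 2-fold from no difference could get that mark. Most list medians were smaller, and a change of sign in those was not counted. With a minimum of 10 CPM, 197, 389 and 317 genes were at least 2-fold apart from the other cells at days 6, 7 and 8, 1053 and 1275 within the class at days 7 and 8 against day 6, and 32 at all 4 days. With no minimum these became 444, 1121, 777 and 2065 genes at days 6, 7, 8 and 10, 2426, 2627 and 3937 genes within the class, and 57 at all 4 days. With no minimum the balance of higher and lower genes turned over at day 7 (521 higher and 600 lower, in place of 160 and 73), and within the class for day 7 against day 6 (1202 and 1224, in place of 392 and 246). At day 8 it went to 287 and 490 with no minimum and to 119 and 120 without cells above the 95th UMI percentile, in place of 108 and 97. With 5 CPM added, 13 genes were apart at all 4 days, in place of 21. Leaving out each day in turn gave 22 to 70 genes, with 70 (51 higher and 19 lower) without day 6. Without the 2 day 7 cells that hold none of the 3 markers, an alternative chosen after seeing the data, 246 genes were apart at day 7, against 233 with them.

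Of the list medians, 11 moved. With 5 CPM added they became 1.72, 4.14, 3.76 and 4.58 for the class markers at days 6, 7, 8 and 10, 0.91 for Hox genes at day 6, 0.77 and 1.16 for roof plate genes at days 7 and 8, -2.02 for neuron genes at day 8, and -0.86 and -1.17 for crest derivative and dorsal interneuron genes at day 10. With means of per-cell CPM the neuron median of day 8 was -3.42. The class made up 46.4%, 15%, 45.4% and 25.2% of the crest classes. At 10000 UMIs per cell, Aldh1a2 was seen in 17.8%, 82.8%, 62.3% and 70.5% of class cells, Col14a1 in 50.7% and 95.2% and Hoxb8 in 82.6% and 85.7% at days 8 and 10. Without thinning the shares were 62.2%, 93.3%, 87.0% and 84.8% for Aldh1a2, 86.7%, 93.3%, 100% and 99.0% for Hoxb8, and 93.3%, 85.5% and 99.0% for Col14a1 at days 7, 8 and 10. More UMIs per cell raise such shares by construction; for the other values the cause was not tested.

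No paired analysis was possible because each day is 1 library, so the days share fewer than 2 replicate numbers and no test was made. Depth limits the class most at day 7, where 0 UMIs among 30 cells allow up to 1.84 CPM.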

Other observations

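Some genes outside the comparisons above differed by day in the class and were picked after their values were seen. At day 6 Sema3e, a semaphorin, was 28.4 CPM, against 2.60 CPM in all other cells, Epha5, an ephrin receptor, 30.8 CPM, against 3.07 CPM, and Etv4, an FGF target, 52.6 CPM, against 6.28 CPM. Sema3e had 0 UMIs and Etv4 at most 0.654 CPM in the class at the later days.

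Others differed at day 10. Cxcl12, the ligand of Cxcr4, was 7.91, 0.612, 2.46 and 32.0 CPM in the class at days 6, 7, 8 and 10, against 8.83, 1.98, 2.64 and 1.62 CPM in all other cells, and Fndc5, the irisin precursor, 5.73, 20.8, 31.4 and 166 CPM, against 3.35, 1.65, 4.49 and 6.72 CPM. Ism1, a secreted protein, was 1.36, 12.2, 19.1 and 26.8 CPM, against 0.778, 0.698, 1.51 and 0.507 CPM, and Wif1, a Wnt inhibitor, 0.273, 0.612, 0.615 and 24.8 CPM, against 0.0201, 0.121, 0.356 and 2.34 CPM. Igfbpl1 was 25.4, 214, 257 and 862 CPM, against 23.3, 37.4, 37.7 and 265 CPM.

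En1, a gene of the midbrain-hindbrain boundary and of ventral interneurons, was 1.64, 26.9, 7.39 and 11.4 CPM in the class, against 2.64, 0.713, 1.06 and 1.18 CPM in all other cells, and was seen in 14 of 30 class cells at day 7.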
